A study of Mus musculus with 24 samples.

Results

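The nuclei described here come from cortical tissue of the mouse and hold RNA of Adarb2 and of the GABA-making enzymes, the pattern of a class of cortical interneurons. They were picked from 12 cortical single-nucleus RNA libraries by unique molecular identifier (UMI, 1 sequenced RNA molecule) counts. A nucleus needed more than 500 and fewer than 7000 genes, under 20% mitochondrial UMIs and at least 3000 UMIs. Within these limits it needed at least 2 UMIs of Gad1 and Gad2 together and at least 6 of Adarb2. It could hold at most 1 UMI of Lhx6, at most 1 of Slc17a7 and Slc17a6 together, at most 2 of Mog, Mag and Mobp together, and none of Csf1r. These limits were met by 2396 nuclei, called Adarb2 nuclei below, of 34457 cortical nuclei with at least 3000 UMIs, 79967 cortical nuclei within the other limits, and 204925 nuclei in all 24 libraries.

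The libraries came from mice of the strain B6.Pdgfbtm3Cbet. Mutants carried the Pdgfb ret allele on both chromosomes (Pdgfb ret/ret), and controls carried it on 1 (Pdgfb ret/wt), so every control also held a ret allele and no animal free of it was in the comparison. The allele removes the retention motif of the growth factor PDGF-B and is present in all cells, and the mutants are a model of vascular calcification of the deep brain. There were 6 mutants, all female, and 6 controls, of which 5 were female and control 6 was male. Replicates 1 to 4 had the same age in both genotypes, at 5 months 3 days, 5 months 0 days, 5 months 18 days and 4 months 24 days. Mutant 5 and control 6 were 4 months 7 days old, and mutant 6 and control 5 were 4 months 9 days old. Each mouse gave 1 library of cortical regions (cerebral cortex and hippocampus) and 1 of deep brain (pallidum, interbrain, midbrain and pons).

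Inhibitory interneurons make GABA and shape the firing of nearby cells. Those of the cortex are born in the ganglionic eminences of the embryo. Cells of the medial eminence express Lhx6 and become Pvalb or Sst neurons. Cells of the caudal ganglionic eminence (CGE) express Adarb2, which encodes a brain protein related to RNA-editing enzymes, together with Prox1 and Nr2f2. They become Vip neurons, many of which inhibit other interneurons, or Lamp5 and Sncg neurons, including the neurogliaform cells of the outer layer. Adarb2 lies at chr13:8202866-8768747 (plus strand, GRCm38) and Vip at chr10:5639218-5647617 (plus strand).

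The numbers of Adarb2 nuclei in mutants 1 to 6 were 136, 60, 54, 77, 502 and 367. In controls 1 to 6 they were 74, 126, 142, 66, 649 and 143. Mutants 5 and 6 and control 5 thus gave most of them. These 3 cortical libraries also held the most UMIs, between 71799624 and 95605387, against 23625232 to 49807261 in the other 9 cortical libraries, where the median nucleus had as few as 804 UMIs. The Adarb2 nuclei themselves had a median of 7761 to 13591 UMIs in controls and 8788 to 17448 in mutants, and their summed counts per library ran from 913270 to 5629665. Of 2390 member barcodes, 6 occurred in more than 1 cortical library. A doublet caller marked 0.016% to 46.7% of nuclei across the cortical libraries and did not work in several of them, so no nucleus was removed on that basis.

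The name Adarb2 interneurons was only partly borne out by the markers. Levels are given as CPM, the summed UMIs of a gene scaled to the total UMIs of a class in a library, as the mean over libraries. Adarb2, Gad1 and Gad2 were used to choose the nuclei, and all genes of these nuclei count as used in comparisons with other cells, so the levels are a description. Adarb2 was at 5630 ± 1262 CPM (SD, n = 12) in Adarb2 nuclei, 5.8 CPM in 349 Lhx6 interneurons of the same libraries, 87.6 CPM in excitatory Slc17a7 nuclei and 109 CPM in oligodendrocytes. Vip, a neuropeptide, was at 645 ± 266 CPM, with a lowest library at 360 and a highest at 1279, and at 3.9 CPM in Lhx6 nuclei. Gad2, which makes GABA, was at 377 ± 41.7 CPM. The cannabinoid receptor gene Cnr1 was at 668 ± 160 CPM against 109 in Lhx6 nuclei, and the transcription factor gene Prox1 at 85.7 ± 32.01 CPM against 6.4. They belong to a list of 13 CGE identity genes that did not differ to this extent. The list summed to 12761 CPM in Adarb2 nuclei, with Adarb2 itself included, and to 8860 CPM in Lhx6 nuclei. Prox1 was also at 220 CPM in oligodendrocytes, so it did not set Adarb2 nuclei apart from all other cells. The Lhx6-lineage genes were low: Sst was at 41.9 CPM against 1403 in Lhx6 nuclei, and Pvalb at 3.3 against 48.0.

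Genes known from the striatum, the olfactory bulb and related structures were present beside the CGE genes. The list of 13 CGE identity genes, which includes Adarb2, summed to 12761 CPM and that of 11 striatal, septal and olfactory genes to 3605 CPM. Adarb2 made up 5630 CPM of the former. In Lhx6 nuclei, which could hold at most 1 UMI of Adarb2, the lists summed to 8860 and 347 CPM. The CGE sum thus did not set Adarb2 nuclei apart from Lhx6 nuclei. Meis2 was at 882 ± 236 CPM, Foxp2 at 663 ± 85.8 and the retinoic acid receptor gene Rarb at 514 ± 146, whereas in Lhx6 nuclei they were at 12.6, 11.0 and 74.8 CPM. Pbx3, a homeobox gene, was at 618 ± 159 CPM against 40.7. Each library held both kinds of nuclei. The Adarb2 nuclei were therefore divided on counts thinned to 3000 UMIs per nucleus, with limits set after the values were seen. At least 4 UMIs of Meis2, Foxp2 and Rarb together defined a Meis2/Foxp2/Rarb sub-group of 1050 nuclei, 43.8% of the total. With at most 1 such UMI, at least 2 UMIs of Pdgfra, Cspg4, Vcan, Olig1 and Olig2, genes of oligodendrocyte precursors (OPC), defined an OPC-marker sub-group of 147 nuclei, or 6.14%. With at most 1 such UMI, fewer than 2 of the OPC genes and at least 3 of 12 CGE markers (Prox1, Nr2f2, Sp8, Npas1, Htr3a, Cnr1, Lamp5, Sncg, Cck, Calb2, Reln and Vip), a CGE-marker sub-group held 829 nuclei, or 34.6%. The remaining 370 nuclei, or 15.4%, met none of the definitions and are called neither. The sum of Meis2, Foxp2 and Rarb was 0 or 1 in 1225 nuclei, 2 or 3 in 121, 4 or 5 in 98 and higher in 952, so few nuclei lay near the limit. The CGE limit cut a more even range, with 71 nuclei at 2 UMIs and 51 at 3.

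**Figure D1:**
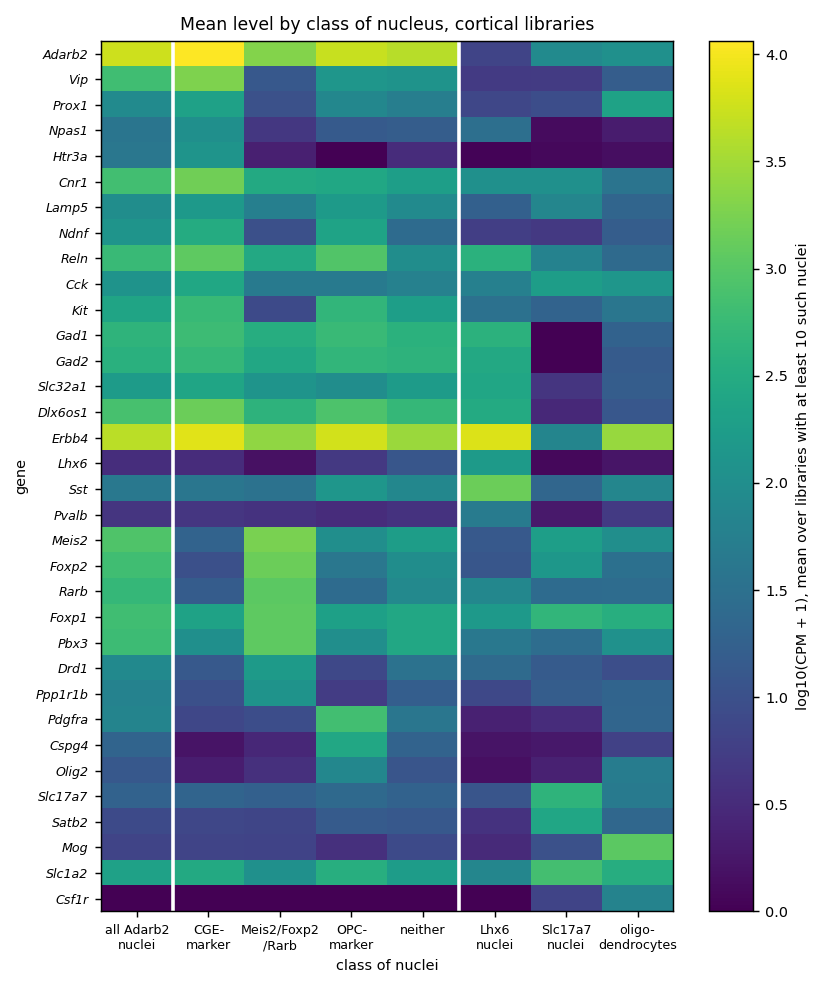
Mean level of 34 genes (rows) in all Adarb2 nuclei, in their 4 sub-groups and in 3 other classes of cortical nuclei (columns), as log10(CPM + 1) averaged over libraries with at least 10 such nuclei (colour). Adarb2 is high in every sub-group, Vip, Npas1 and Htr3a have their highest values among the sub-groups in the CGE-marker column, and Meis2, Foxp2 and Rarb are high in the Meis2/Foxp2/Rarb column.

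The sub-groups differed in level for several genes, including some that did not define them. Some lists had nearly equal sums, such as the 12 GABA-A receptor subunits (4999 CPM in CGE-marker and 5061 in Meis2/Foxp2/Rarb nuclei) and 24 synaptic adhesion genes (38323 and 38207 CPM). Others did not, such as 13 genes of GABA synthesis and lineage (3981 and 1663 CPM) and 16 immediate early genes (560 and 850 CPM). Of the latter, Homer1 alone was at 126 and 127 CPM in mutant and control CGE-marker nuclei. In Meis2/Foxp2/Rarb nuclei it was at 415 and 428 CPM. Fos went the other way (42.2 and 70.4 against 13.6 and 29.3 CPM), so the sum does not stand for the whole list. In the CGE-marker nuclei Adarb2 was at 11575 ± 1763 CPM (n = 12), from 8427 to 14986, and in the Meis2/Foxp2/Rarb nuclei at 2046 ± 470 CPM, from 1125 to 2961. The libraries of these sub-groups did not overlap. Leading genes of the CGE-marker nuclei were Htr3a, the ionotropic serotonin receptor, at 107 CPM in the pooled counts against 1.45 in the other Adarb2 nuclei, Vip (1708 against 43.8), the stress peptide gene Crh (148 against 6.75) and the tachykinin gene Tac2 (213 against 10.2). Of these, Htr3a and Vip are among the genes that define the sub-group. Npas3, a transcription factor gene outside the definition, was at 2497 ± 447 CPM in CGE-marker nuclei and 131 ± 69.8 in Meis2/Foxp2/Rarb nuclei.

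The Meis2/Foxp2/Rarb nuclei carried genes known from striatal projection neurons. Rgs9, a regulator of G-protein signalling, was at 658 CPM in their pooled counts against 39.3 in the other Adarb2 nuclei, and Ppp1r1b, the dopamine-signalling protein DARPP-32 gene, at 124 against 9.83. The dopamine receptor gene Drd1 was at 161 ± 37.9 CPM (n = 12) against 12.4 ± 4.2 in CGE-marker nuclei, and Foxp1 at 1140 ± 342 against 216 ± 49.4. The potassium channel gene Kcnd2 was at 5172 ± 603 CPM against 1195 ± 270, and the metabotropic glutamate receptor gene Grm5 at 2729 ± 395 against 1230 ± 177. Vip was close to 0 in these nuclei, at 12.1 ± 12.4 CPM. The sums of 11 striatal, septal and olfactory genes reached 7031 CPM in this sub-group, 428 in CGE-marker nuclei and 907 in excitatory nuclei. The list holds Meis2, Foxp2 and Rarb, which define the sub-group and were limited in the CGE-marker nuclei, so this contrast was in large part fixed by the definition. The cortical dissection also covered the hippocampus, and the labels do not tell from which structure a nucleus came.

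The OPC-marker nuclei held Pdgfra, the PDGF-A receptor gene of precursors, at 675 ± 312 CPM in the 4 libraries with at least 10 of them, and Cspg4 at 274 ± 120. They also held Gad1 at 573 ± 170 CPM and Gad2 at 471 ± 105, of which the limits required at least 2 UMIs together. Sox6 was at 919 ± 382 CPM, close to the 897 of Lhx6 nuclei, but no class of precursors was set beside them. Whether they were doublets was not tested. The nuclei in neither sub-group led with Rmst, a long non-coding RNA, at 206 CPM in the pooled counts against 40.6, Tshz2 (155 against 40.9) and Sox6 (322 against 110). Their level of Chat, which makes acetylcholine, was 37.4 ± 41.3 CPM (9 libraries), against 9.8 in CGE-marker and 0.8 in Meis2/Foxp2/Rarb nuclei.

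Markers of other classes were present. Over all Adarb2 nuclei Slc17a7 was at 18.1 CPM against 437 in excitatory nuclei and Mog at 5.9 against 1088 in oligodendrocytes. The limits on the nuclei and on these classes fixed both contrasts, and Csf1r was 0 by definition. The sum of 8 oligodendrocyte genes was 135 to 284 CPM in controls and 178 to 250 CPM in mutants, and that of 11 excitatory genes 481 to 539 CPM and 417 to 553 CPM. The former list was at 21472 CPM in oligodendrocytes and the latter at 1864 CPM in excitatory nuclei. A list of 8 astrocyte genes was at 366 CPM in Adarb2 nuclei and 775 CPM in excitatory nuclei. Just inside the limit, nuclei with 6 or 7 UMIs of Adarb2 had Meis2 at 1341 CPM and Vip at 14.5 CPM (6 libraries). Just outside, nuclei with 4 or 5 UMIs had Meis2 at 1221 CPM and Vip at 18.9 CPM (5 libraries).

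**Figure D2:**
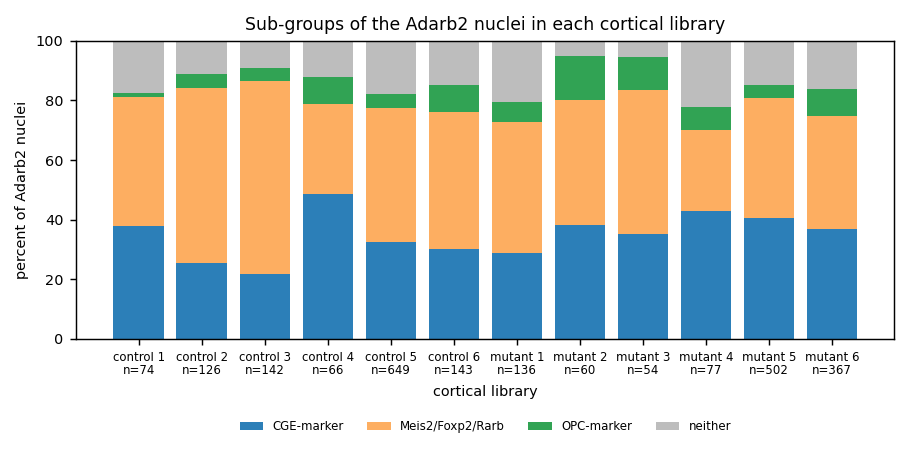
Percent of the Adarb2 nuclei in each sub-group (stacked colours) for the 12 cortical libraries, with the number of nuclei under each bar. Every library holds CGE-marker and Meis2/Foxp2/Rarb nuclei, and the latter range from 27.3% in mutant 4 to 64.8% in control 3.

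By library, the CGE-marker share had a lowest, median and highest value of 28.7%, 37.6% and 42.9% in mutants and of 21.8%, 31.3% and 48.5% in controls. The Meis2/Foxp2/Rarb share had 27.3%, 41.1% and 48.1% in mutants and 30.3%, 45.6% and 64.8% in controls. The ranges overlapped for both sub-groups. OPC-marker nuclei made up 8.95% ± 3.76 (SD, n = 6) in mutants and 5.55% ± 3.02 in controls. These shares were defined after the values were seen and were not tested.

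The 15 genes of largest fold in Adarb2 nuclei over all other cortical nuclei with at least 3000 UMIs, among 1919 genes of at least 100 CPM in Adarb2 nuclei, are given as a description. Adarb2, Gad1 and Gad2 among them were used by the limits. Vip led, at 32.02-fold, followed by Adarb2 at 20.7-fold. The growth factor gene Igf1 was 13.4-fold higher (119 against 8.86 CPM), Ndnf, a secreted protein of neurogliaform cells, 12.8-fold, and the guidance molecule gene Sema3c 8.91-fold. The chemokine gene Cxcl14 was 8.79-fold higher. The receptor tyrosine kinase genes Egfr and Kit were 10.1-fold and 9.84-fold higher, at 235 and 238 CPM. Genes of the inhibitory lineage were Dlx6os1 (12.6-fold), Dlx1as (9.45-fold), Gad2 (6.30-fold) and Gad1 (6.16-fold). Pde11a, a cyclic nucleotide phosphodiesterase gene, Pbx3 and the adrenergic receptor gene Adra1a were 6.63-fold, 5.83-fold and 5.46-fold higher.

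Vip and Lamp5 marked different nuclei. On counts thinned to 3000 UMIs, 369 Adarb2 nuclei held Vip and no Lamp5, 413 held Lamp5 and no Vip, 18 held both and 1596 held neither. Vip was found in 40.7% of CGE-marker and 2.29% of Meis2/Foxp2/Rarb nuclei, and Lamp5 in 24.5% and 14.2%. In OPC-marker nuclei Vip was found in 4.76% and Lamp5 in 26.5%, and in the nuclei called neither in 5.14% and 10.8%. Since Vip and Lamp5 are among the markers that define the CGE-marker nuclei, these shares follow in part from the definition. The following levels compare Vip nuclei with Lamp5 nuclei in the 11 libraries with at least 10 of each. The genes named were picked from the lists after their values were seen, among those higher in the same kind of nucleus in 11 of 11 libraries, so that count is no support for them. Of 10043 genes with a mean of at least 10 CPM, 4.34% were higher in Vip nuclei and 4.7% higher in Lamp5 nuclei in all 11.

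Vip nuclei had more Adarb2, at 13055 against 4893 CPM. Among the CGE transcription factors, Prox1 was at 305 against 84.3 CPM, Npas1 at 118 against 4.3 and Npas3 at 2735 against 474. Of the peptides, Tac2 was at 540 against 6.6 CPM, Crh at 376 against 2.6, Cck at 333 against 64.7 and the enkephalin gene Penk at 612 against 137. Synpr, a synaptic vesicle protein gene, was at 1877 against 173 CPM, and Cxcl14 at 602 against 68.2. Receptors on the same side were Htr3a (205 against 3.3 CPM), Cnr1 (1542 against 327), the muscarinic receptor gene Chrm3 (865 against 194), Htr2c (315 against 106), and the neuropeptide Y receptor genes Npy1r (115 against 14.8) and Npy2r (70.6 against 6.4). Potassium channel genes on this side were Kcnt2 (1077 against 232 CPM), Kcnip1 (724 against 327) and Kcnmb2 (672 against 350).

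Lamp5 nuclei had more Ndnf, at 371 against 10.2 CPM, and more of Reln, an extracellular matrix protein gene, at 1224 against 105. Of the GABA-A receptor subunits, Gabra4 was at 331 against 120 CPM and Gabrd, which forms extrasynaptic receptors, at 99.8 against 12.9. Of the glutamate receptor subunits, Grin2a was at 2025 against 503 CPM, Grm5 at 2165 against 863, Gria3 at 597 against 200 and Gria1 at 1123 against 829. Kcnd2 was at 3032 against 1028 CPM and Kcnh7 at 1364 against 549. Htr2a, another serotonin receptor, was at 77.6 against 14.8 CPM. The kinds of nuclei differed in makeup. CGE-marker nuclei were 203 of all 431 Adarb2 nuclei with Lamp5, but 337 of 387 with Vip. OPC-marker nuclei were 39 and 7 of them, and nuclei called neither 40 and 19. Meis2/Foxp2/Rarb nuclei, in which Kcnd2 and Grm5 were also higher on average than in CGE-marker nuclei, were 149 and 24. Meis2 was at 688 CPM in Lamp5 and 175 in Vip nuclei. The part of this makeup in the levels above was not tested.

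The number of Adarb2 nuclei per library did not separate the genotypes. They made up 6.12% ± 0.561 (SD, n = 6) of mutant and 7.48% ± 1.78 (n = 6) of control nuclei with at least 3000 UMIs, a difference of -1.36 percentage points with p = 0.113 in a two-sided exact permutation test over 924 splits, whose smallest p is 0.00216. The mutant libraries ran from 5.44% to 7.04% and the control libraries from 5.14% to 9.91%, so the mutant range lay inside that of the controls. Without control 4, the lowest control, the difference was -1.83 points (p = 0.026, exact permutation test). By library, mutants 1 to 6 had 5.76%, 5.89%, 6.15%, 5.44%, 6.41% and 7.04%, and controls 1 to 6 had 5.98%, 7.20%, 9.91%, 5.14%, 7.69% and 8.94%. A lower share of nuclei of a type and less RNA per nucleus, which leaves fewer nuclei above 3000 UMIs, cannot be told apart here. The Adarb2 nuclei, all above this limit, had a pooled median of 10235 UMIs in mutants and 9092.5 in controls. Of Adarb2 and Lhx6 nuclei together, the Adarb2 nuclei made up 85.6% ± 2.50 in mutants and 84.3% ± 7.70 in controls (p = 0.749, exact permutation test, n = 6 per genotype).

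The share of Adarb2 nuclei with a UMI of a sub-type marker was compared on counts thinned to 3000 UMIs. Vip was present in 19.1% ± 4.94 of Adarb2 nuclei in mutants and 17.7% ± 7.36 in controls (exact permutation p = 0.669, n = 6 per genotype). In oligodendrocytes, which should lack Vip, it was in 4.16% of nuclei with library medians of 3718 to 6025 UMIs, and in Slc17a7 nuclei in 1.52%. This background was itself unequal, at 2.83% ± 0.492 of oligodendrocytes in mutant and 6.75% ± 3.99 in control libraries for Vip and at 4.08% ± 1.09 and 7.32% ± 2.86 for Lamp5. Lamp5 was present in 20.6% ± 2.84 and 20.7% ± 6.99 (exact permutation p = 0.983, n = 6), against 5.04% in oligodendrocytes and 15.4% in Slc17a7 nuclei, which include Lamp5 cells. Cck was present in 23.0% ± 7.36 and 24.6% ± 7.06 (exact permutation p = 0.688, n = 6). Its share in oligodendrocytes was 30.4%, above the 21.2% of all Adarb2 nuclei, while in Lhx6 nuclei it was 12.9%. In CGE-marker nuclei, for which Cck is one of the defining genes, it was 34.1%. The share over all Adarb2 nuclei thus lay within the range of the other classes and is not read as expression. Sncg was found in 7 of 2396 Adarb2 nuclei, which is too few for a comparison. Adjusted over these 4 shares, each p was 0.983.

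**Figure D3:**
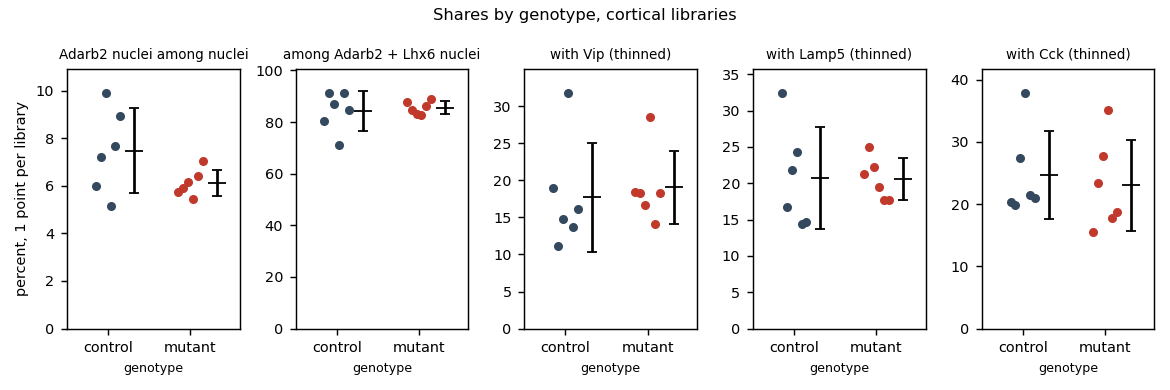
Percent per library (points, 6 per genotype) with the mean ± SD beside them, for Adarb2 nuclei among nuclei with at least 3000 UMIs, among Adarb2 and Lhx6 nuclei, and for Adarb2 nuclei with a UMI of Vip, Lamp5 or Cck after thinning. The mutant points of the leftmost panel sit between 5.44% and 7.04%, inside the control range, and the genotypes overlap in every panel.

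The next comparison asked which genes of the Adarb2 nuclei differed between mutants and controls. UMIs were summed per library and tested with edgeR's quasi-likelihood test, and the CPM given for it are scaled by TMM factors. Of 11413 genes, 16 passed an adjusted p of 0.05 (0.14%), 13 higher in mutants (0.114%) and 3 lower (0.0263%). The number with an unadjusted p under 0.05 was 1110. For 85 genes (0.745%) the levels of the genotypes did not overlap. No gene passed when any 1 of mutants 1, 2 and 6 or controls 1, 2, 3, 4 and 6 was left out, and every one of the 16 then kept its direction. None passed either on counts thinned to 3000 UMIs or for nuclei with at least 10 UMIs of Adarb2, whereas DESeq2 called 95 genes, a fit with no filter on low counts 51, and fits with the replicate number or age as a block 81 and 57. After thinning only 6762 genes were tested, with 12 of the 16 among them, all in the same direction. Thinning also removed UMIs from nuclei with a median of 9651.5, so fewer differences could pass. All mutants were female and control 6 was the only male.

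Onecut2, a homeobox factor of the cut family, had a lowest, median and highest level of 19.1, 28.1 and 38.3 CPM in mutants and of 7.81, 11.2 and 14.1 CPM in controls. Every mutant was above every control, and the log2 fold change was 1.27 ± 0.197 (SE, edgeR adjusted p = 0.0385). Gli3, which acts in hedgehog signalling, ran from 31.9 to 71.8 CPM in mutants and from 16.4 to 30.7 in controls, again without overlap (log2 1.04 ± 0.179, edgeR adjusted p = 0.0465). Foxp1, at chr6:98925338-99522721 (minus strand), had 604, 800 and 1033 CPM as lowest, median and highest in mutants and 459, 526 and 560 in controls (log2 0.63 ± 0.120, adjusted p = 0.0465). Aff3, a nuclear protein gene, was at 373 ± 81.8 CPM in mutants and 237 ± 25.6 in controls (log2 0.64).

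Cacnb2, a voltage-gated calcium channel subunit gene at chr2:14603088-14987908 (plus strand), had a lowest, median and highest level of 992, 1276 and 1544 CPM in mutants and 667, 805 and 839 in controls. All 6 mutants were above all 6 controls (log2 0.69 ± 0.111, edgeR adjusted p = 0.0385). Kcnab1, a potassium channel subunit gene, had 620, 730 and 1109 CPM against 453, 463 and 595 (log2 0.70 ± 0.133, adjusted p = 0.0465). Ryr3, which encodes a calcium release channel of the endoplasmic reticulum, was at 874 ± 212 CPM and 540 ± 42.3 (log2 0.69, adjusted p = 0.0499). Rasgrp2, an activator of small GTPases driven by calcium, ran from 52.8 to 83.5 CPM in mutants and from 33.0 to 44.6 in controls (log2 0.67).

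Ephb1, a receptor for ephrins, ran from 192 to 251 CPM in mutants and from 130 to 174 in controls (log2 0.56 ± 0.100, edgeR adjusted p = 0.0465). The integrin gene Itga9 ran from 45.5 to 83.5 CPM and from 17.0 to 42.6 (log2 0.98 ± 0.181, adjusted p = 0.0465). The long non-coding RNA C87487, at chr17:9189126-9223664 (plus strand), differed most in log2 terms, at 2.79 ± 0.525 (adjusted p = 0.0465), but its genotypes overlapped: mutants ran from 3.11 to 118 CPM and controls from 1.67 to 9.56. D430041D05Rik (log2 0.49) and Gm10754 (log2 0.63) complete the 13. Gm10754 was also a leading gene of the Meis2/Foxp2/Rarb nuclei, at 601 CPM in their pooled counts against 27.2 in the other Adarb2 nuclei.

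The 3 genes that fell were Amigo2, Pnmal2 and Tceal3. Amigo2, a neuronal adhesion protein gene on the chromosome of Pdgfb, had 1.03, 4.05 and 6.14 CPM as lowest, median and highest in mutants and 6.38, 11.9 and 16.2 in controls (log2 -1.47 ± 0.277, edgeR adjusted p = 0.0465). These levels are low, and the nearest mutant and control differed by little. Pnmal2 ran from 33.4 to 48.4 CPM in mutants and from 51.3 to 81.8 in controls (log2 -0.65), and the X-linked gene Tceal3 from 24.1 to 29.2 and from 36.8 to 46.8 (log2 -0.56). Below the threshold stood Hap1, the huntingtin-associated protein gene (71.0 CPM as the mutant median and 126 as the control median, adjusted p = 0.0594), and Kcnk10, a background potassium channel gene (29.4 and 42.4 CPM, adjusted p = 0.061).

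**Figure D4:**
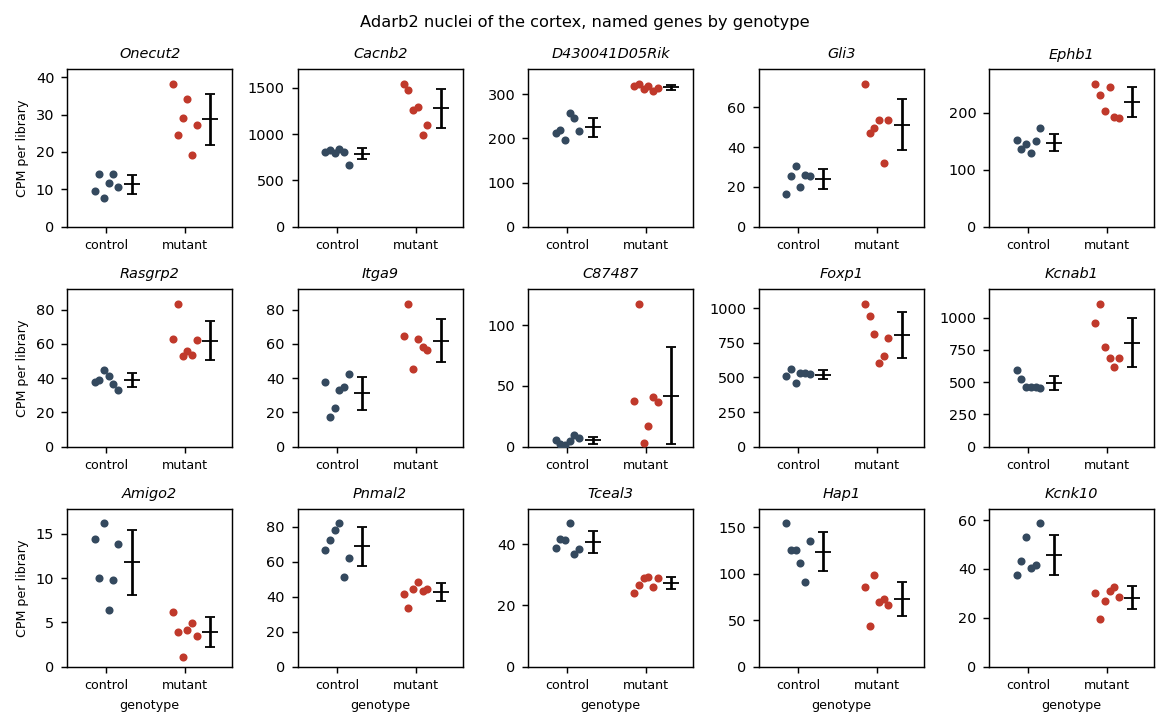
TMM-scaled CPM of 15 genes in the Adarb2 nuclei of each cortical library (points, 6 per genotype), with the mean ± SD beside them; 10 are higher in mutants, 3 are lower, and Hap1 and Kcnk10 have an adjusted p of 0.0594 and 0.061. Cacnb2, Onecut2 and Foxp1 separate the genotypes in every library, whereas C87487 runs from 3.11 to 118 CPM among mutants and overlaps the controls.

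The levels of these genes were also read in the CGE-marker and Meis2/Foxp2/Rarb nuclei separately. The following plain CPM per sub-group are means over 6 libraries per genotype, given as a description, since the sub-groups were set after the values were seen. Fits added within them called 217 of 9256 genes in Meis2/Foxp2/Rarb nuclei and 2 of 7268 in CGE-marker nuclei. Cacnb2 was at 1884 ± 424 CPM in mutant and 979 ± 254 in control Meis2/Foxp2/Rarb nuclei, but at 735 ± 90.3 and 739 ± 102 in CGE-marker nuclei. Kcnab1 was at 1338 ± 297 and 729 ± 123 CPM in the former and at 339 ± 46.0 and 341 ± 50.5 in the latter. Foxp1 was at 1434 ± 160 and 847 ± 154 CPM in Meis2/Foxp2/Rarb nuclei and at 229 ± 40.7 and 204 ± 58.0 in CGE-marker nuclei. Onecut2 was at 59.8 ± 20.8 and 19.1 ± 5.45 CPM in the former and at 2.26 and 1.61 in the latter, so it was hardly present in CGE-marker nuclei. Gli3 was at 106 ± 33.5 and 42.8 ± 7.38 CPM in the former, but at 2.64 ± 3.08 and 5.73 ± 9.48 in the latter. Rasgrp2 was at 111 ± 19.0 and 62.0 ± 16.3 CPM in the former and at 17.6 ± 7.79 and 19.1 ± 6.11 in the latter. Ephb1 was at 358 ± 32.1 and 250 ± 55.2 CPM in the former and at 55.9 ± 51.5 and 28.4 ± 16.0 in the latter. Itga9 was at 57.9 ± 19.6 and 18.1 ± 7.75 CPM in the former and at 48.9 ± 17.1 and 32.8 ± 13.5 in the latter, so the means of both genes were higher in mutants in both sub-groups. The share of Meis2/Foxp2/Rarb nuclei was 39.9% ± 7.11 in mutants and 48.0% ± 12.2 in controls, and its part in these differences was not tested.

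C87487, in contrast, was found in the CGE-marker nuclei. It was at 91.7 ± 59.2 CPM in mutant and 14.9 ± 8.42 in control CGE-marker nuclei and was not counted in any Meis2/Foxp2/Rarb library. The means of Tceal3 and Pnmal2 were lower in mutants in both sub-groups. Tceal3 was at 30.0 ± 4.04 and 49.2 ± 6.95 CPM in CGE-marker nuclei and at 23.2 ± 3.32 and 37.0 ± 3.73 in Meis2/Foxp2/Rarb nuclei. Pnmal2 was at 46.2 ± 5.91 and 75.0 ± 27.8 CPM, and at 34.4 ± 6.53 and 69.6 ± 7.36 CPM. In Lhx6 nuclei of the same libraries the level of Cacnb2 was 214 ± 67.6 and 259 ± 53.3 CPM, and that of Tceal3 26.8 ± 12.6 and 34.7 ± 8.61.

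Most functional groups of genes gave no call between genotypes, beside a median log2 fold change of -0.004 over all 11413 genes. None of 13 CGE identity genes passed, with a median of 0.20. Adarb2, which was used to choose the nuclei, was at 6400 ± 1345 CPM in mutants and 5029 ± 924 in controls (log2 0.35 ± 0.158, edgeR adjusted p = 0.479). None of 9 Vip-type genes passed. Vip had a lowest, median and highest level of 469, 612 and 1281 CPM in mutants and of 374, 536 and 1052 in controls (log2 0.23 ± 0.238, adjusted p = 0.823). The genotypes overlapped widely. None of 8 Lamp5- and Sncg-type genes, 13 genes of GABA synthesis and lineage, 12 GABA-A receptor subunits, 21 glutamate receptor genes or 16 acetylcholine and serotonin receptor genes passed. Of 10 striatal genes Foxp1 passed, and of 24 potassium channel genes Kcnab1, beside 0.14% called over all genes. None of 24 synaptic adhesion genes, 12 stress and hypoxia genes or 6 interferon and MHC genes passed. The 5 OPC genes gave no call either, but all had a positive log2 fold change with a median of 0.37, and their summed level ran from 116 to 414 CPM in mutants and from 51.0 to 314 CPM in controls. The part of OPC RNA in the other differences was not tested.

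Of 15 neuropeptide receptor genes none passed, while 13 had a negative log2 fold change (median -0.17). The summed level of the list ran from 270 to 372 CPM in mutants and from 371 to 545 CPM in controls, so the highest mutant and the lowest control were nearly level. Cckbr, a cholecystokinin receptor, was at 13.1 ± 4.21 CPM in mutants and 26.9 ± 14.7 in controls (log2 -1.02 ± 0.277, edgeR adjusted p = 0.182). Vipr2, a receptor for Vip, was at 7.17 ± 5.59 and 24.7 ± 24.0 CPM (log2 -1.70 ± 0.566, adjusted p = 0.292). Vipr1, the other one, was at 16.8 ± 2.37 and 10.5 ± 4.98 CPM (log2 0.66 ± 0.242, adjusted p = 0.349). No PDGF family gene passed among 3 tested. Of 126 listed genes within 2 Mb of Pdgfb, at chr15:79995874-80014977 (minus strand), 64 were tested and none passed.

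The difference between genotypes was next compared with that in Lhx6 interneurons of the same libraries, by an interaction term. No gene of 10564 passed (0%) by edgeR, and none by DESeq2, while 570 and 317 had an unadjusted p under 0.05. With no filter on low counts 57 genes passed, 28 with a positive and 29 with a negative term, and without control 2 a single gene passed. The lowest p belonged to Gsg1l, an AMPA receptor auxiliary protein gene (interaction log2 1.62 ± 0.294, edgeR adjusted p = 0.141), and Mme, the peptidase neprilysin (1.57 ± 0.298, adjusted p = 0.141). Cacnb2 followed at 0.97 ± 0.209 (adjusted p = 0.463), then Kcnab1 at 0.75 and Ccdc88c at 1.35. On the negative side stood Bicc1 (-1.24), Fbn2 (-2.19), Kank1 (-4.67), the ribosomal protein gene Rpl13 (-0.83) and Phactr2 (-1.32), each with an adjusted p of 0.77. In Adarb2 nuclei alone Kank1 hardly differed (log2 -0.07), at 11.7 to 29.0 CPM in mutants and 4.82 to 29.8 in controls. It did not pass the filter on low counts in Lhx6 nuclei alone. The 349 Lhx6 nuclei, 11 to 79 per library, limit this comparison.

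The last comparison set the cortical Adarb2 nuclei against 7803 nuclei of the 12 deep brain libraries that met the same limits. Of 14559 genes, 5228 passed by edgeR (35.9%), 2649 higher in cortex (18.2%) and 2579 higher in deep brain (17.7%). The sub-groups were in different proportions, since CGE-marker nuclei made up 9.91% and Meis2/Foxp2/Rarb nuclei 32.3% in deep brain, and 51.6% met neither definition. A difference between regions in these sums can thus be one of makeup or of level within a sub-group. For some genes and lists the values in CGE-marker nuclei alone are given too, as an addition made after the values were seen. In that fit 7.38% of 8126 genes were higher in cortex and 6.23% higher in deep brain, which are the shares its counts are read against. The sub-group was admitted by members of the CGE identity, Vip-type and Lamp5- and Sncg-type lists, so its values for these lists depend in part on the definition. Within CGE-marker nuclei, 14 diencephalon, midbrain and hindbrain genes summed to 8.00 ± 13.7 CPM in cortex and 157 ± 69.2 in deep brain. The 8 telencephalon genes summed to 1676 ± 300 and 971 ± 357 CPM. Makeup may thus differ inside this sub-group too, and its part in the values was not tested. On counts thinned to 3000 UMIs, 2593 of 11839 genes passed over all Adarb2 nuclei.

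Vip had the largest difference on the cortical side. In TMM-scaled CPM it was at 672 ± 265 CPM in cortex (387 to 1318, n = 12) and 64.3 ± 55.8 in deep brain (6.16 to 169). The log2 fold change was 3.59 ± 0.423 (edgeR adjusted p = 1.8e-07). Within CGE-marker nuclei the log2 difference was 1.90 ± 0.320. Npy, neuropeptide Y, was at 252 ± 77.4 and 35.2 ± 20.4 CPM (log2 2.87 ± 0.248, adjusted p = 1.25e-09), and at 1.67 in CGE-marker nuclei. Ndnf (log2 2.68), Cxcl14 (2.64), Tac2 (2.35) and Cck (2.31) followed. After thinning, Cck was found in 30.4% of cortical oligodendrocytes and 21.2% of cortical Adarb2 nuclei. The part of background RNA in its difference between regions was not tested. The receptor tyrosine kinase genes Egfr (246 ± 73.4 and 37.4 ± 21.8 CPM, log2 2.79 ± 0.268, adjusted p = 5.64e-09) and Kit (250 ± 49.7 and 47.4 ± 20.9 CPM, log2 2.42) were also among the 10 largest, with Dlx1as (2.21) and Rgs12, a regulator of G-protein signalling (2.00).

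On the deep brain side, 4 of the 10 genes encode transcription factors. Zfhx3, a zinc finger homeobox gene, was at 84.9 ± 44.1 CPM in cortex (38.3 to 212) and 413 ± 75.2 in deep brain (277 to 513; log2 -2.30 ± 0.173, edgeR adjusted p = 1.96e-10). Its log2 difference in CGE-marker nuclei was -3.46 ± 0.321. The others were Zfhx4 (log2 -1.74), Zfpm2 (-1.76) and Tshz2 (-1.47). Rmst was at 72.6 ± 23.0 and 328 ± 60.1 CPM (log2 -2.19 ± 0.132, adjusted p = 4.34e-12), and its difference in CGE-marker nuclei was -3.55 ± 0.317. Syt2, a calcium sensor of fast transmitter release, was at 26.4 ± 12.0 and 125 ± 33.4 CPM (log2 -2.27), and Baiap3, an exocytosis protein gene, at 28.0 and 76.4 CPM (log2 -1.45). The loci 6330411D24Rik, with the largest difference of the 10 (-2.46), Gm32647 (-1.90) and Gm13629 (-1.67) complete the list.

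**Figure D5:**
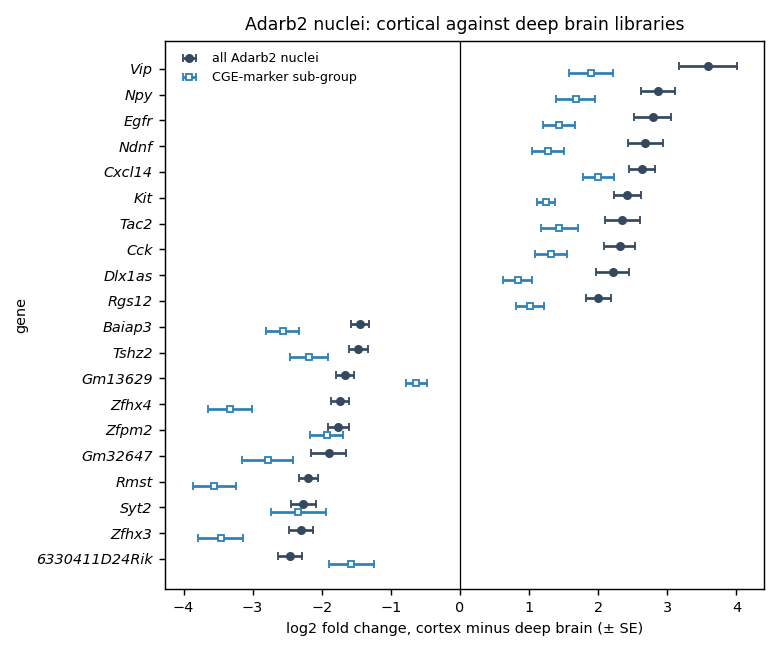
Log2 fold change (± SE) between cortical and deep brain libraries for the 10 genes of largest difference in each direction, in all Adarb2 nuclei (filled circles) and in CGE-marker nuclei only (open squares); positive values are higher in cortex. All 20 genes have the same sign in both sets, Vip falling from 3.59 to 1.90 and Rmst going from -2.19 to -3.55.

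By list, all 13 CGE identity genes passed on the cortical side against 18.2% of all genes, with a median log2 fold change of 1.64 beside -0.004 over all genes. Adarb2 was part of the limits in both regions and is included in this count. Prox1 was at 89.7 and 28.7 CPM (log2 1.64), Htr3a at 42.4 and 4.8 (3.18), Cnr1 at 698 and 178 (1.98) and Erbb4, the neuregulin receptor, at 4542 and 1631 (1.48). Of 11 Vip-type genes 8 were higher in cortex, among them Crh (62.9 and 7.7 CPM, log2 2.97) and Igf1 (124 and 36.5 CPM, log2 1.80), and 2 were lower, Calb2 (log2 -0.54) and Pcdh15 (-0.41). Of 9 Lamp5- and Sncg-type genes 7 were higher and none lower. All 8 telencephalon genes were higher in cortex, such as Dlx1 (57.3 and 14.2 CPM, log2 1.98). In CGE-marker nuclei 10 of 11 tested CGE identity genes were higher in cortex, against 7.38% of all genes in that fit, with a median of 0.87. So were 6 of 8 Vip-type genes (median 1.21) and 5 of 7 telencephalon genes (median 0.65).

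Of 12 tested transcription factor genes of diencephalon, midbrain and hindbrain, 11 were higher in deep brain, with a median of -4.26. In the genotype fit of cortical libraries only 1 of the 14 listed genes passed the filter on low counts. Most were thus tested only through their deep brain levels, which largely fixed the direction. The count is therefore not read against the 17.7% of all genes. Tal1 was at 0.501 CPM in cortex and 13.8 in deep brain, Lhx5 at 0.244 and 8.50, Gata3 at 1.34 and 18.0 and Otx2 at 1.14 and 15.4. Since several of these genes were at 0 in cortical libraries, the size of the log2 values depends on the prior count. The whole list summed to 6.30 to 118 CPM in the cortical nuclei of mutants and to 0.928 to 28.5 CPM in those of controls. Of 11 striatal genes 7 were higher in cortex, against 18.2% of all genes, among them Meis2 (924 and 475 CPM, log2 0.97), Drd1 (87.9 and 43.3 CPM, log2 0.99) and Foxp1 (684 and 420 CPM, log2 0.67), and Zic1 was lower (-0.68). In CGE-marker nuclei none of 6 tested was higher in cortex, against 7.38% of all genes in that fit, and 3 were lower, against 6.23%. The median there was -0.67 in place of 0.71, and the definition of the sub-group limits Meis2, Foxp2 and Rarb in both regions. Because of this limit, and since the medians cover 11 and 6 genes, no turn in direction is read from them.

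The lists of receptors and channels are read against 18.2% of all genes higher in cortex and 17.7% higher in deep brain. Of 12 GABA-A receptor subunits 7 were higher in cortex, led by Gabrd (62.2 and 23.1 CPM, log2 1.43) and Gabra4 (278 and 131 CPM, log2 1.08), and 2 were higher in deep brain, Gabrg1 (31.4 and 66.6 CPM, log2 -1.05) and Gabra3 (-0.49). Of 22 glutamate receptor genes 12 were higher in cortex, such as the NMDA receptor genes Grin2b (1465 and 812 CPM, log2 0.85) and Grin2a (0.80), and 4 were higher in deep brain, such as Grin3a (-0.40). Of 24 potassium channel genes 15 were higher in cortex, led by Kcnq5 (2083 and 1023 CPM, log2 1.03), and 2 were higher in deep brain, among them Kcna2 (-0.41). Acetylcholine and serotonin receptor genes split, 6 against 9 of 23, of a list with 16 tested in the genotype fit of cortical libraries. Genes that entered the region fit only through their deep brain levels had their direction largely fixed. The 9 are therefore not read against the 17.7% of all genes. Chrna7 (163 and 76.3 CPM, log2 1.09) was on the cortical side, and Htr2c (212 and 478 CPM, log2 -1.18) and Chrm2 (136 and 250 CPM, log2 -0.87) on the deep side. Chrna6 (0.037 and 4.94 CPM) was also on the deep side, but could pass the filter on low counts only through the deep brain libraries, which fixed its direction. Of 17 neuropeptide receptor genes 10 were higher in cortex, among them Npy1r (34.5 and 12.0 CPM, log2 1.47) and Sstr4 (14.9 and 4.9 CPM, log2 1.57), and only Tacr3 (log2 -1.29) was higher in deep brain. In CGE-marker nuclei the medians were nearer 0 for GABA-A receptor (0.14), glutamate receptor (0.025), potassium channel (0.23) and neuropeptide receptor genes (0.43), and fewer of them were called. There, 4 of 12, 5 of 20, 9 of 24 and 3 of 6 were higher in cortex, against 7.38% of all genes in that fit. The acetylcholine and serotonin receptor median was further from 0 there, at 0.31 beside 0.09 over all Adarb2 nuclei. Of 12 such genes tested there, 5 were higher in cortex and 3 higher in deep brain.

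Immediate early genes, which follow neuronal activity, were higher in cortex for 13 of 16 genes, against 18.2% of all genes, with a median of 1.12. Npas4 was at 39.1 and 14.7 CPM (log2 1.44), Nr4a1 at 78.5 and 36.7 (1.12) and Fos at 36.3 and 17.0 (1.06). In CGE-marker nuclei 3 of 7 tested were higher in cortex, against 7.38% of all genes in that fit, with a median of 0.74. The list gave no call between genotypes, where 13 of 15 genes had a negative log2 fold change with a median of -0.32. In CGE-marker nuclei it gave no call between genotypes either, and all 7 tested genes were negative, with a median of -0.62. Over all Adarb2 nuclei the summed level of the list overlapped widely, from 402 to 1021 CPM in mutants and from 438 to 1081 CPM in controls. Homer1, at 276 ± 99.8 CPM in mutants and 287 ± 113 in controls, made up a large part of this sum. Egr1 was at 50.9 ± 12.1 CPM in mutants and 79.4 ± 11.7 in controls (log2 -0.59 ± 0.143, edgeR adjusted p = 0.107), and Fos at 24.4 ± 9.25 and 46.0 ± 18.0 (-0.84 ± 0.252, adjusted p = 0.244). In plain CPM Egr1 ran from 27.3 to 60.1 in mutants and from 67.9 to 99.9 in controls, without overlap. Over all genes 0.745% had no overlap in TMM-scaled levels.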

How the data were processed

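Nuclei of cortical and deep brain regions of 6 mutant and 6 control mice were profiled with 10x 5′ gene expression libraries. Per the submitters' processing notes, the authors used bcl2fastq 2.20.0.422 and Cell Ranger 5.0.1 with mm10. Per the study's methods, intronic reads were counted. The deposited files hold UMI counts per gene and barcode, not normalised and with no cell type annotation. Libraries were taken as the replicates. Within a region each came from a separate mouse, but the 24 libraries came from 12 mice, and the region fit treated both libraries of a mouse as separate, with the mouse as a block as an alternative.

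The nuclei and gene lists were chosen with earlier results of these data known. Counts of the chosen nuclei were summed per library with at least 10 of them. Genes were kept by filterByExpr, scaled by TMM and tested with edgeR 4.0.16 (glmQLFit, glmQLFTest, R 4.3.3), with Benjamini-Hochberg adjustment over all genes tested and a threshold of 0.05. The genotype fit used the 12 cortical libraries. The interaction fit used library, class and class by genotype, and the region fit had genotype as a term. The depth of 913270 to 5629665 summed UMIs per library limits what can be seen of genes at a few CPM. Shares were compared by exact two-sided permutation tests over libraries. The procedure was tested on simulated counts. The Lhx6 class held at least 2 UMIs of Lhx6 and at most 1 of Adarb2, under the other limits. Slc17a7 nuclei held at least 6 UMIs of Slc17a7 and no Gad1 or Gad2, and oligodendrocytes at least 6 UMIs of Mog, Mag and Mobp together.

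Named genes were the 10 called genes of lowest p per direction between genotypes, or the 5 of lowest p where fewer than 5 were called, as for the genes lower in mutants and for the interaction. Between regions they were the 10 called genes of largest log2 fold change per direction with at least 50 CPM. Against other nuclei they were the 15 of largest fold with at least 100 CPM. Beside these stand members of the lists; the other called genes between genotypes and the leading genes of sub-groups were named after their values were seen. Gene positions came from GENCODE M21 (GRCm38), in which 32158 of 32288 genes were matched. DESeq2 1.42.0, other scalings and filters, thinning, doublet removal, other limits, blocks and leaving out each library were tried as alternatives. Some genes are not reported here.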

Additional observations from a re-analysis of the deposited data

Results flagged for a closer look

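In 42 groups of 6 libraries looked at, 4 values stood apart from the other 5 of their genotype by Dixon's criterion, which chance alone meets in about 1 group in 20. In mutant 4, 28.6% of Adarb2 nuclei held Vip after thinning, the highest of the mutants, whose median was 18.3%. Cacnb2 was at 667 CPM in control 6, the lowest of the controls and the only male, against a control median of 805 CPM. Rasgrp2 was at 83.5 CPM in mutant 2, against a mutant median of 59.2 CPM. C87487 was at 118 CPM in mutant 2, against a mutant median of 37.2 CPM. No reason for these 4 values was tested.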

How the results depend on the processing

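Called genes between genotypes numbered 95 with DESeq2, 51 with no filter on low counts, 0 on counts thinned to 3000 UMIs (496 at an unadjusted p under 0.05) and 0 for nuclei with at least 10 UMIs of Adarb2 (926 at an unadjusted p under 0.05). The thinned fit tested 6762 genes in place of 11413, with 12 of the 16 among them. DESeq2 shared 15 of the 16. Leaving out 1 library gave 0 to 26 genes, with 0 in 8 cases, 24 without mutant 4 and 26 without control 5. The 16 kept their direction in each. Chosen after seeing the data, the fit on Meis2/Foxp2/Rarb nuclei called 217 genes (14 of the 16) and that on CGE-marker nuclei 2 (1 of the 16), where 10 of 11 tested kept their direction. Replicates 1 to 4 share an age across genotypes, but the labels name no shared litter or batch, and the correlations of same-numbered deviations over 3956 genes were 0.097, -0.051, 0.078, 0.278, 0.629 and 0.25. Pairing was thus not established for every number and was not used in the main fit. By age mutant 5 goes with control 6 and mutant 6 with control 5, so the correlations for numbers 5 and 6 are not of age-matched mice. The control of highest correlation was control 5 for both mutant 5 and mutant 6. With the replicate number as a block 81 genes were called, and with age as a block 57. The share of nuclei had p = 0.0938 by exact sign flips in a replicate block.

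The interaction called 57 genes with no filter and 0 to 1 with 1 library left out. Between regions 2593 genes were called after thinning, 1106 in CGE-marker nuclei (added after seeing the data), 5564 with the mouse as a block, where the pairing comes from the same animals, and 4573 to 5247 with both libraries of 1 mouse left out. All 20 named genes were called in the same direction in each of 20 alternatives. With 1 library left out, the mutant minus control difference in percentage points ran from -1.83 (without control 4, p = 0.026, exact permutation) to -0.877 for the share of nuclei, from -1.36 to 2.71 for the share of interneurons, from -0.583 to 4.14 for Vip, from -1.39 to 2.23 for Lamp5, from -0.0346 to 0.173 for Sncg and from -4.03 to 1.03 for Cck. The sign turned without thinning for Vip (-0.184) and Sncg (-0.274), and with at least 2 UMIs for Lamp5 (1.57) and Cck (0.791), while no Adarb2 nucleus held 2 UMIs of Sncg. Apart from these, the alternatives run kept the direction and the side of the threshold of these results, or a count within 1.5 times. Thinning before the limits were applied left almost no Lhx6 nuclei, so the share of interneurons says little there.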
